A study of Mus musculus with 84 samples.

Results

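The cannabinoid receptor CB1 and 6 enzymes that make or break down its ligands were followed in mouse brain. The genes were chosen by symbol, not by measured values, though earlier results of these data were known. They are Cnr1, Dagla, Daglb, Napepld, Mgll, Abhd6 and Faah, 7 of the 43629 genes in the deposited count table. All 7 were found and all 7 passed the filter on low counts that left 16537 genes for testing. Bulk RNA of the ventrolateral striatum was sequenced from 84 adult mice that had received no treatment. They belong to generation S4 of a pair of lines, SOT and NOT, selected on 2 traits at once, preference for ethanol and withdrawal from it. The labels give 44 animals as High Drinker (23 males, 21 females) and 40 as Low Drinker (22 males, 18 females). Naive animals make up both groups, and the labels used here do not say which line each animal belongs to, nor which animals share a family. In what follows, line means the label High Drinker or Low Drinker. If animals share parents, the p-values below measure the spread between animals and not between families.

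Endocannabinoids are lipid messengers that neurons make on demand. In the striatum, 2-arachidonoylglycerol released by medium spiny neurons acts backwards on CB1 at the terminals of cortical and local inputs and lowers transmitter release. DAGL-alpha and DAGL-beta (Dagla, Daglb) make 2-arachidonoylglycerol, and monoacylglycerol lipase (Mgll) and ABHD6 (Abhd6) break it down. NAPE-PLD (Napepld) makes anandamide, the other main endocannabinoid, and fatty acid amide hydrolase (Faah) breaks it down.

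Promoter sequence was taken from RefSeq (build GRCm38.p6) as the 250 bases before the most upstream listed start, and 6 of the 7 genes had an entry. The windows of Faah, Daglb and Napepld are shown because the levels of these genes rose and fell together most closely over the libraries, and that of Cnr1 because its level did not follow them. Capitals mark GGGCGG on either strand (CCGCCC when it lies on the other strand), the GC box that Sp1-type factors bind. The searches also covered the TATA box (TATAAA), the CCAAT box, the cyclic AMP response element (TGACGTCA) and the E-box (CACGTG), each on both strands, and no found motif overlapped another.
Faah promoter (chr4:116017925-116018174, minus strand): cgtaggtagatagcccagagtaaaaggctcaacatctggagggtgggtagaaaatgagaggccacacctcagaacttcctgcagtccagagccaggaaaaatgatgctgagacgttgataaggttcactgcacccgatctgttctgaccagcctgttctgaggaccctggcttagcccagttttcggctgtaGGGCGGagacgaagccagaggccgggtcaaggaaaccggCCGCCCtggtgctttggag
Daglb promoter (chr5:143464243-143464492, plus strand): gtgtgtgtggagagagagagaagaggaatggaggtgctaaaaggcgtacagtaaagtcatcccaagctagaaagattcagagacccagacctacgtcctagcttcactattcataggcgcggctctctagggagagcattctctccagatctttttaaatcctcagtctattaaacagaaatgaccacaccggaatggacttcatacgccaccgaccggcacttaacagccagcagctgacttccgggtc
Napepld promoter (chr5:21701623-21701872, minus strand): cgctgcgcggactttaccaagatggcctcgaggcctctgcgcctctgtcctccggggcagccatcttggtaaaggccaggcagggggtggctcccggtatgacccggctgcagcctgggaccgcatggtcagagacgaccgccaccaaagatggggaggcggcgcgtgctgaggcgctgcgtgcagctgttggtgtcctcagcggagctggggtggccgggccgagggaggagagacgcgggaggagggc
Cnr1 promoter (chr4:33924014-33924263, plus strand): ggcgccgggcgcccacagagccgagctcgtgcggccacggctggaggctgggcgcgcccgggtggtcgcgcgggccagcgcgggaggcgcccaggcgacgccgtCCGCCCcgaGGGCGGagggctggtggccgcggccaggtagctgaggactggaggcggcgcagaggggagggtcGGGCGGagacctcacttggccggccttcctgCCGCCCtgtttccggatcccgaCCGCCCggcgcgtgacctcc
The Cnr1 window held 5 GGGCGG motifs, a GC content of 79.2% and 36 CpG dinucleotides. The Faah window held 2 GGGCGG motifs, with 55.6% GC and 9 CpG. The Daglb window (49.2% GC, 9 CpG) and the Napepld window (69.6% GC, 21 CpG) held none of the 5 motifs. Of 32851 RefSeq windows of this length, 32.7% held GGGCGG, 33.8% CCAAT, 12.4% TATAAA, 6.02% CACGTG and 1.55% TGACGTCA, and the medians were 52.4% GC and 6 CpG. The Mgll window held 1 CACGTG and the Abhd6 window 1 CCAAT. No motif among those searched was found in all 3 windows of Faah, Daglb and Napepld. At the shares above a motif in all 3 would be uncommon for any genes, and shared regulation was not tested. The deposited gene begins 329 bases past the end of the Cnr1 window, 226 past that of Napepld and 14 past that of Abhd6, and RefSeq lists 3 starts for Cnr1.

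Library totals ran from 22190363 to 41300401 counts (median 31697635), and Xist set against the Y-linked gene Ddx3y matched the label for sex in 84 of 84 libraries. The tissue held both striatal and cortical transcripts in varying proportion. Ppp1r1b, the DARPP-32 marker of medium spiny neurons, ran from 81.5 to 2683 CPM (counts scaled to a common library total) and Slc17a7, a marker of cortical glutamatergic neurons, from 94.99 to 2520 CPM. Drd2 came down to 1.19 CPM in the lowest library. The summed CPM of the 15 medium spiny neuron markers ran from 2146 to 18363 (median 7449.98) in High Drinkers and from 1848 to 15935 (median 6462) in Low Drinkers. For the 10 cortical markers it ran from 305 to 3638 (median 2092.5) in High Drinkers and from 612 to 4082 (median 2138) in Low Drinkers. None of these markers was at 0 in every library. The test between lines was passed by 0 of 15 and 0 of 10, beside 3.94% of all tested genes. The fitted log2 fold change of High over Low Drinker was positive for 14 of the 15 medium spiny neuron markers (median 0.13). It was positive for 5 of the 10 cortical markers (median -0.01), and the median over all tested genes was -0.0016. In bulk tissue, fewer cells of a type and less RNA per cell cannot be told apart. The 5 libraries with the lowest rank correlation with the others were High Drinker 17 and Low Drinker 8, 32, 33 and 34 (numbers only name libraries). The sample numbers in the titles fall in 3 sets, called sheet sets, with 30 High and 18 Low Drinker libraries in set 1, 11 High and 19 Low Drinker libraries in set 2, and 3 of each in set 3. The sets are read from that numbering and entered every model.

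Levels between genes can be compared only per length, as CPM per kilobase of exon (RPKM). On that scale Mgll was the most abundant of the 7 transcripts at 48.7 ± 9.18 RPKM (mean ± SD, n = 84). Cnr1 followed at 36.2 ± 14.04 RPKM, below Mgll in 67 of 84 libraries, so the order of this pair was not uniform. Dagla came after it at 25.2 ± 5.89 RPKM, below Cnr1 in 70 libraries. Abhd6 stood at 20.7 ± 2.05 RPKM, below Dagla in 63 libraries, the least regular step in the order. Faah lay at 12.8 ± 4.62 RPKM, below Abhd6 in 81 libraries. Daglb, at 8.06 ± 1.40 RPKM, lay below Faah in 78. Napepld was lowest at 2.75 ± 0.868 RPKM, below Daglb in 84 of 84 libraries. The ranges of neighbours in this order overlapped at every step. Of the 2 enzymes that make 2-arachidonoylglycerol, Dagla was the more abundant transcript, and of the 3 that break down endocannabinoids, Mgll.

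The genes differed widely in how much they varied between animals. Faah ran over a 7.45-fold range of CPM across all 84 libraries, with a coefficient of variation of 36.2%. Cnr1 ran over 5.85-fold (38.8%) and Napepld over 4.25-fold (31.6%). Dagla ran over 2.82-fold (23.4%), Mgll over 2.61-fold (18.9%) and Daglb over 2.09-fold (17.3%). Abhd6 was the steadiest, over 1.698-fold (9.88%). Once sheet set, sex and line were removed, the SD of log2 CPM was higher for Faah (0.51) than for 84.5% of tested genes, and for Abhd6 (0.14) it was higher than for 16.7%. The lowest count of any of the 7 genes in a library was 159, for Napepld.

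**Figure D1:**
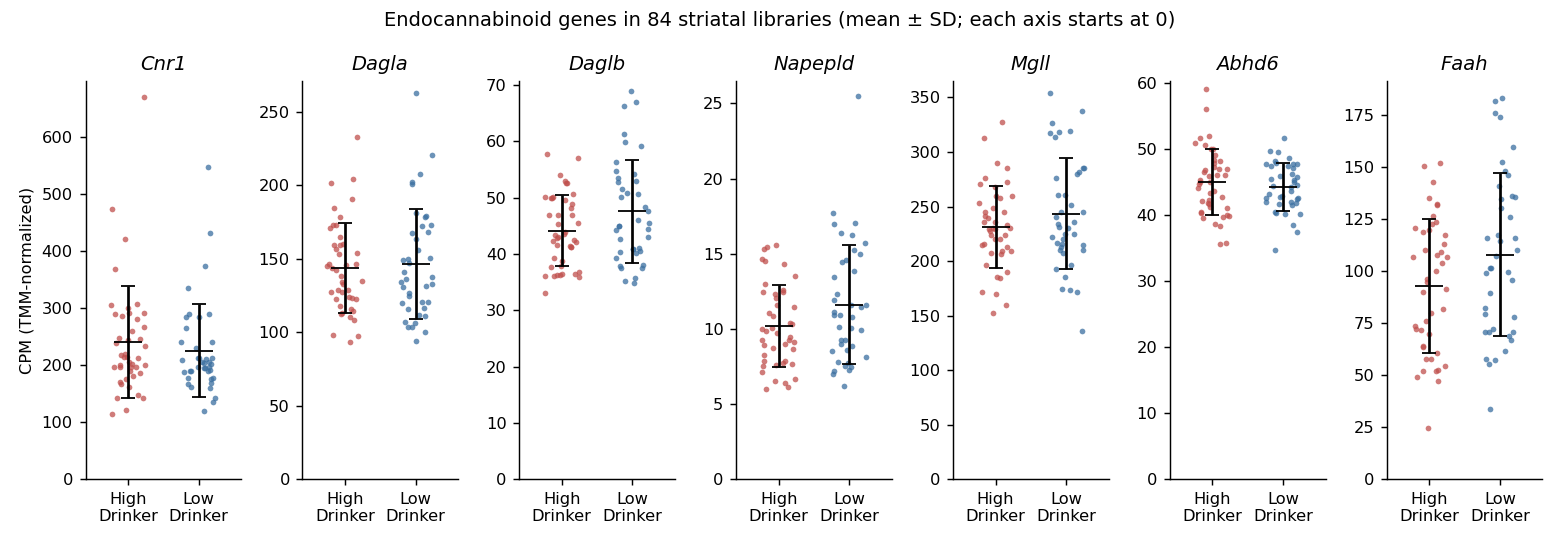
CPM (TMM-normalized, vertical axes starting at 0) of the 7 genes, 1 point per animal, with 44 High Drinker animals left of 40 Low Drinker animals in each panel and bars for mean ± SD. The point clouds of both lines overlap for every gene, and a single High Drinker library at 669.8 CPM of Cnr1 and a single Low Drinker library at 25.5 CPM of Napepld lie above the rest.

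The first comparison asked whether the lines differ in these transcripts, and 0 of the 7 genes passed the test (edgeR quasi-likelihood, adjusted p under 0.05). Over all tested genes, 651 of 16537 passed, which is 3.94%, with 288 (1.74%) higher and 363 (2.2%) lower in High Drinker animals. No member had an unadjusted p under 0.05, and DESeq2 and limma-voom also called 0 of 7. The median log2 fold change of the 7 genes was -0.03, against 0.00 over all tested genes (-0.0016).

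Cnr1 encodes the CB1 receptor (ENSMUSG00000044288, chromosome 4, 33924593 to 33948831, plus strand, mm10). It ran from 114.5 CPM (median 214) to 669.8 CPM in High Drinkers and from 119.95 CPM (median 203) to 547 CPM in Low Drinkers. The ranges overlapped almost entirely, and the 3 highest libraries came from both lines. The means were 241 ± 98.4 CPM in High Drinkers and 225 ± 81.3 CPM in Low Drinkers (SD, n = 44 and 40), a log2 fold change of 0.04 (SE 0.105, 95% interval -0.17 to 0.25, edgeR adjusted p = 0.898).

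Among the synthesis enzymes, Dagla makes most of the 2-arachidonoylglycerol used in retrograde signalling (ENSMUSG00000035735, chromosome 19, 10245265 to 10304877, minus strand). It ran from 93.1 CPM (median 140.4) to 233 CPM in High Drinkers and from 94.0 CPM (median 137) to 262 CPM in Low Drinkers. The lines shared their lower end, and the highest library was a Low Drinker one. The log2 fold change was 0.01 (SE 0.0714, 95% interval -0.13 to 0.15, edgeR adjusted p = 0.961).

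Daglb, the second diacylglycerol lipase, is best known from microglia and macrophages (ENSMUSG00000039206, chromosome 5, 143464493 to 143504442, plus strand). It ran from 33.02 CPM (median 43.2) to 57.7 CPM in High Drinkers and from 34.8 CPM (median 45.2) to 68.9 CPM in Low Drinkers. The High Drinker range ended lower, with the bulk of both lines in common. Its log2 fold change was -0.06 (SE 0.0495, 95% interval -0.16 to 0.04, edgeR adjusted p = 0.570).

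Napepld, the anandamide-forming phospholipase (ENSMUSG00000044968, chromosome 5, 21662901 to 21701396, minus strand), had the fitted difference farthest from 0. It ran from 6.01 CPM (median 9.78) to 15.6 CPM in High Drinkers and from 6.18 CPM (median 10.9) to 25.5 CPM in Low Drinkers. The Low Drinker maximum was a single library, Low Drinker 2, and the next was 17.7 CPM. The log2 fold change was -0.14 (SE 0.0953, 95% interval -0.33 to 0.05, edgeR adjusted p = 0.472).

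Among the breakdown enzymes, Mgll (ENSMUSG00000033174, chromosome 6, 88724412 to 88828360, plus strand) degrades most 2-arachidonoylglycerol in brain. It ran from 152 CPM (median 229.6) to 327 CPM in High Drinkers and from 136 CPM (median 232) to 354 CPM in Low Drinkers. Medians were close and the Low Drinker range was wider at both ends. The log2 fold change was -0.03 (SE 0.0549, 95% interval -0.14 to 0.08, edgeR adjusted p = 0.825). Of its exon bases, 90 (1.85%) overlap Gm26588 on the other strand, and reads there cannot be assigned without strand; the other 6 genes share no exon with another gene.

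Abhd6, a serine hydrolase at the neuronal membrane (ENSMUSG00000025277, chromosome 14, 8002902 to 8056555, plus strand), ran from 35.7 CPM (median 45.002) to 59.1 CPM in High Drinkers and from 34.8 CPM (median 44.3) to 51.7 CPM in Low Drinkers. The 3 highest libraries were High Drinker and the lowest was Low Drinker, and the rest overlapped. Its log2 fold change had the narrowest interval of the 7 genes, at 0.03 (SE 0.0323, 95% interval -0.03 to 0.10, edgeR adjusted p = 0.667), which corresponds to folds from 0.977 to 1.07.

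Faah (ENSMUSG00000034171, chromosome 4, 115967145 to 116017926, minus strand) ran from 24.6 CPM (median 95.6) to 152 CPM in High Drinkers and from 33.7 CPM (median 104) to 184 CPM in Low Drinkers. The 3 highest libraries were Low Drinker 33, 34 and 32, all among the 5 that stood apart, and the lowest was High Drinker 17, also among them. The log2 fold change was -0.10 (SE 0.113, 95% interval -0.32 to 0.13, edgeR adjusted p = 0.707), and without the 5 libraries it was -0.06 (adjusted p = 0.878). The interval is wide, so folds from 0.800 to 1.09 are within it. In sheet set 2 alone Faah averaged 109 ± 30.8 CPM in 11 High Drinkers and 130.2 ± 30.7 CPM in 19 Low Drinkers, a log2 fold change of -0.23 (adjusted p = 0.920), and in set 1 alone 88.0 ± 31.3 CPM in 30 High Drinkers and 90.9 ± 35.7 CPM in 18 Low Drinkers (-0.05, adjusted p = 0.929).

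**Figure D2:**
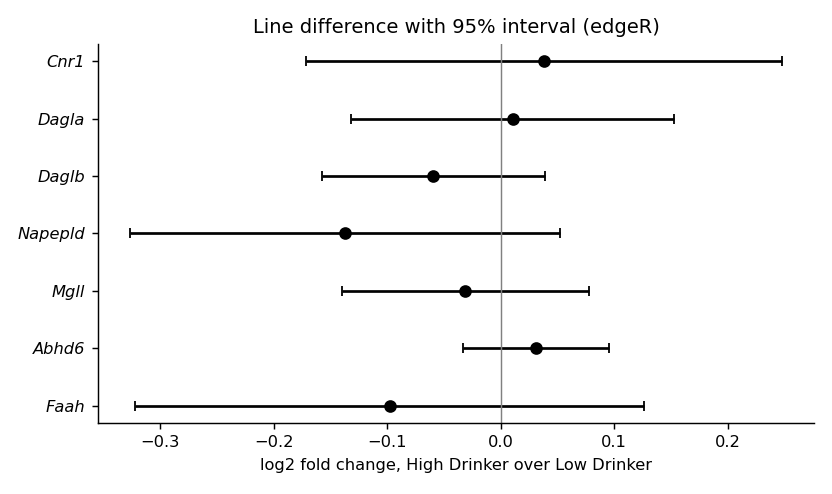
Log2 fold change of High Drinker over Low Drinker (horizontal axis) with its 95% interval from edgeR for each of the 7 genes. Every interval includes 0, and the widest belong to Faah (-0.32 to 0.13) and Cnr1 (-0.17 to 0.25).

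Sex and line by sex were tested in the same way. Between males and females 0 of 7 genes passed, beside 15 of 16537 (0.0907%) over all genes, 7 (0.0423%) higher and 8 (0.0484%) lower in males, and no member had an unadjusted p under 0.05 (edgeR; DESeq2 also called 0 of 7). The difference farthest from 0 was that of Mgll, at 245 ± 42.7 CPM in 45 males and 227 ± 45.6 CPM in 39 females, a log2 fold change of 0.09 (SE 0.0545, unadjusted p = 0.114, edgeR adjusted p = 1). The line by sex interaction gave 0 calls among 16537 genes (0%) by edgeR, with 953 genes at an unadjusted p under 0.05, and 0 by DESeq2. Daglb was the 1 member with an unadjusted p under 0.05. In males it averaged 42.2 ± 5.54 CPM in High Drinkers and 49.7 ± 9.26 CPM in Low Drinkers, and in females 46.2 ± 6.66 CPM in High Drinkers and 44.9 ± 8.40 CPM in Low Drinkers. Its interaction was -0.24 on the log2 scale (SE 0.0938, unadjusted p = 0.0110, edgeR adjusted p = 0.774), which did not pass, and it was -0.14 with the cell type scores described below in the model (adjusted p = 0.937).

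The study's design names differential variance, so the spread of each gene around its line and sex median was compared. None of the 7 genes passed the test (limma, adjusted p from 0.977 to 0.986, 0 at an unadjusted p under 0.05), beside 2 of 16537 genes (0.0121%). Daglb had a mean absolute deviation of 0.16 in High Drinkers and 0.21 in Low Drinkers on the log2 CPM scale, and Cnr1 0.36 in High Drinkers and 0.29 in Low Drinkers. For Faah the mean absolute deviations were 0.44 in both lines.

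Over the 84 libraries, 6 of the 7 genes rose and fell together and Cnr1 stood outside them. Pearson r was computed on log2 CPM after removing sheet set, sex and line, for 21 pairs, with 100000 permutations and adjustment over the 21 pairs. The test was passed by 16 pairs, 15 positive and 1 negative, and the 15 positive pairs are all those without Cnr1. Such relations are common here. At the limit of r that this adjustment set, an absolute r of 0.227, 22.7% of all 136727916 pairs of tested genes were positive and 22.9% negative. The r of Daglb with Faah was 0.884, the highest of the 21 (Spearman rho 0.908, both p = 1e-05, the smallest the permutations can give, both adjusted p = 1.91e-05). It was 0.915 within set 1, 0.882 within set 2 and at least 0.884 without the 2 libraries farthest from the median of either gene. Napepld and Faah, the enzymes that make and break down anandamide, had r = 0.835 and rho = 0.883 (both p = 1e-05, adjusted 1.91e-05), with 0.885 in set 1 and 0.786 in set 2, and 0.844 or 0.835 without the 2 libraries farthest in Napepld or in Faah. Set 3 holds 6 libraries over both lines and gives no value of its own.

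The 2 diacylglycerol lipases Dagla and Daglb had r = 0.766 and rho = 0.730 (both permutation p = 1e-05, adjusted 1.91e-05), with 0.769 in set 1 and 0.764 in set 2, and 0.723 or 0.742 without the 2 libraries farthest in Dagla or in Daglb. Daglb and Mgll, which make and break down 2-arachidonoylglycerol, had r = 0.741 and rho = 0.722 (both permutation p = 1e-05, adjusted 1.91e-05), with 0.774 in set 1 and 0.733 in set 2. Abhd6 was the loosest of the 6, with r from 0.267 with Dagla to 0.511 with Napepld. Without the 5 libraries standing apart, its pair with Dagla did not pass by r (0.219, adjusted p = 0.0656 by permutation). By rho that pair did pass (0.264, adjusted p = 0.0233 by permutation). In set 2 alone none of the 5 pairs of Abhd6 with the other enzymes passed by r (from 0.0237 to 0.376), although Napepld with Abhd6 passed by rho (0.440, adjusted p = 0.0312 by permutation). All 10 pairs among the other 5 enzymes passed there, where 12.6% of all pairs of tested genes were positive past the limit of 0.412.

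The 1 negative pair was that of the receptor and the main lipase for its ligand, Cnr1 and Mgll, with r = -0.391 (permutation p = 0.00027, adjusted 0.000405) and rho = -0.293 (p = 0.0067, adjusted 0.00938). It was -0.364 without the 2 libraries farthest from the median in Cnr1 and -0.301 without those farthest in Mgll. Within set 1 r was -0.464 (adjusted p = 0.00118) and within set 2 -0.372 (permutation p = 0.0437, adjusted 0.0765). In set 2 rho was -0.179 (adjusted p = 0.422 by permutation). There r was -0.232 or -0.154 without the 2 libraries farthest in Cnr1 or in Mgll. Over the 84 libraries, the other 5 pairs with Cnr1 had r from -0.138 with Faah to 0.184 with Dagla, and did not pass.

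**Figure D3:**
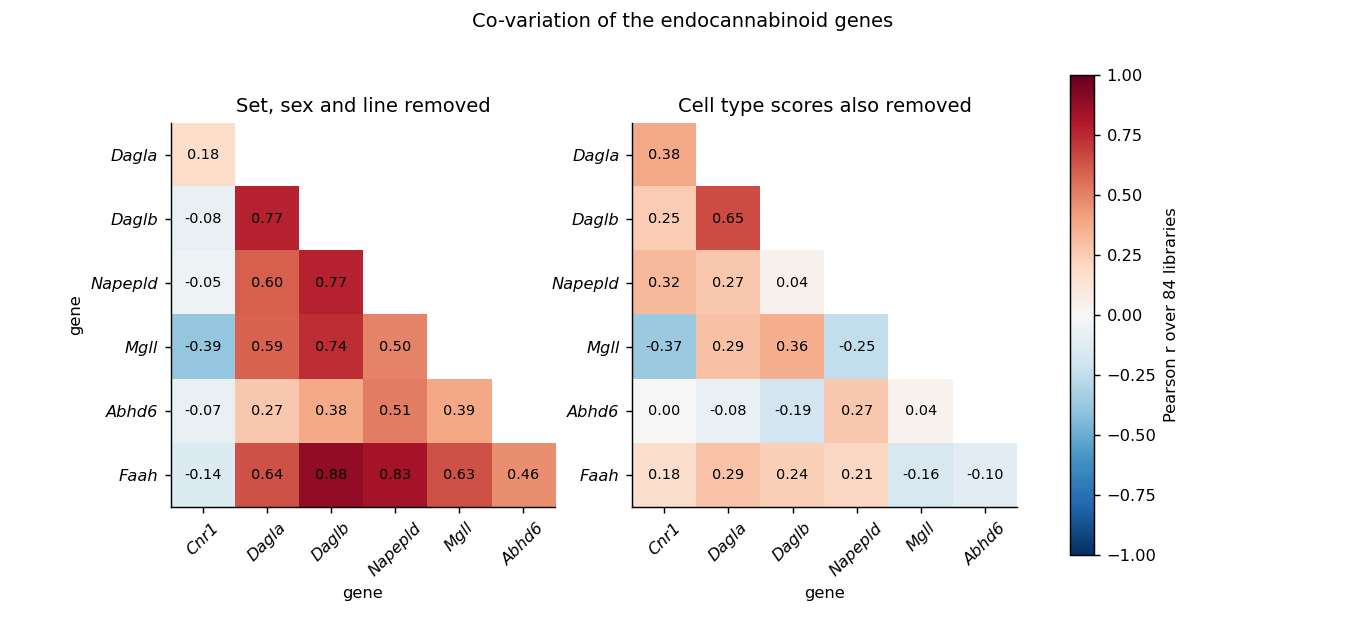
Pearson r over 84 libraries for each of the 21 gene pairs (both axes are genes, the color scale runs from -1 to 1), on the left after removing sheet set, sex and line and on the right after also removing the medium spiny neuron and cortical scores. The block of high values at left (Daglb with Faah 0.88) largely fades at right (0.24), while Dagla with Daglb stays high (0.65) and Cnr1 with Mgll stays negative (-0.37).

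The 6 enzymes moved with marker scores of the cells in the dissected piece. A score was computed for each of 5 cell type lists as the mean standardized residual log2 CPM of its markers, and each of the 7 genes was compared with each score (35 relations, 100000 permutations, adjustment over the 35). The medium spiny neuron and cortical scores ran opposite to each other over the libraries (r = -0.824). The first principal component of all tested genes, which holds 26.4% of the variance, had r = 0.926 with the cortical and -0.920 with the medium spiny neuron score. Faah followed the cortical score with r = 0.944 and rho = 0.952 (both permutation p = 1e-05, adjusted 2.92e-05), 0.957 in set 1 and 0.956 in set 2. Over the alternatives run, this r of Faah ranged from 0.940 to 0.957.

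Daglb had r = 0.881 with the cortical score, Napepld 0.808, Mgll 0.700, Dagla 0.602 and Abhd6 0.532 (each permutation p = 1e-05 and adjusted 2.92e-05 for both r and rho). Of all tested genes, 29.6% were positive with the cortical score past the limit of 0.239 that the adjustment set, and 28.5% were negative with the medium spiny neuron score. Within set 1 these r ran from 0.561 for Dagla to 0.886 for Daglb, and within set 2 from 0.284 for Abhd6 to 0.874 for Daglb. The same 6 genes ran against the medium spiny neuron score, from r = -0.850 for Faah and -0.847 for Napepld to -0.384 for Abhd6 (permutation p = 0.00032, adjusted 0.0008). Abhd6 passed with neither score in set 2 alone (r = 0.284 and -0.343). The 2 scores together shared 90.8% of the variance of Faah, 80.0% of that of Daglb and 75.6% of that of Napepld. They shared 49.4% for Mgll, 36.2% for Dagla and 29.3% for Abhd6, beside a median of 17.5% over all tested genes. With both scores in the model of the line difference, 0 of the 7 genes passed and the log2 fold changes ran from -0.05 for Napepld to 0.05 for Dagla.

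Cnr1 shared 7.56% of its variance with these scores, the least of the 7 genes. Its r was -0.172 with the cortical score (permutation p = 0.117, adjusted 0.185), where in set 1 alone it passed at -0.327 (adjusted p = 0.0396) but its rho of -0.230 did not (adjusted p = 0.164). Its r was 0.263 with the medium spiny neuron score (p = 0.015, adjusted 0.0263), and its rho with the medium spiny neuron score, 0.162, did not pass (permutation p = 0.141). That r was 0.427 in set 1 (adjusted p = 0.00432) and -0.0733 in set 2 (adjusted p = 0.816), so the relation did not hold in both sets. Its 3 highest and 2 lowest libraries all had strong medium spiny neuron scores. High Drinker 4, at 669.8 CPM, Low Drinker 4, at 547 CPM, and High Drinker 40, at 474 CPM, had scores above those of 98.8%, 96.4% and 95.2% of libraries. High Drinker 37, at 114.5 CPM, and Low Drinker 24, at 119.95 CPM, had scores above those of 97.6% and 92.9%. These libraries were singled out after their values were seen. In rodent striatum Cnr1 mRNA is known to be densest in dorsolateral medium spiny neurons and sparse ventromedially, and the position of each dissection was not measured here.

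**Figure D4:**
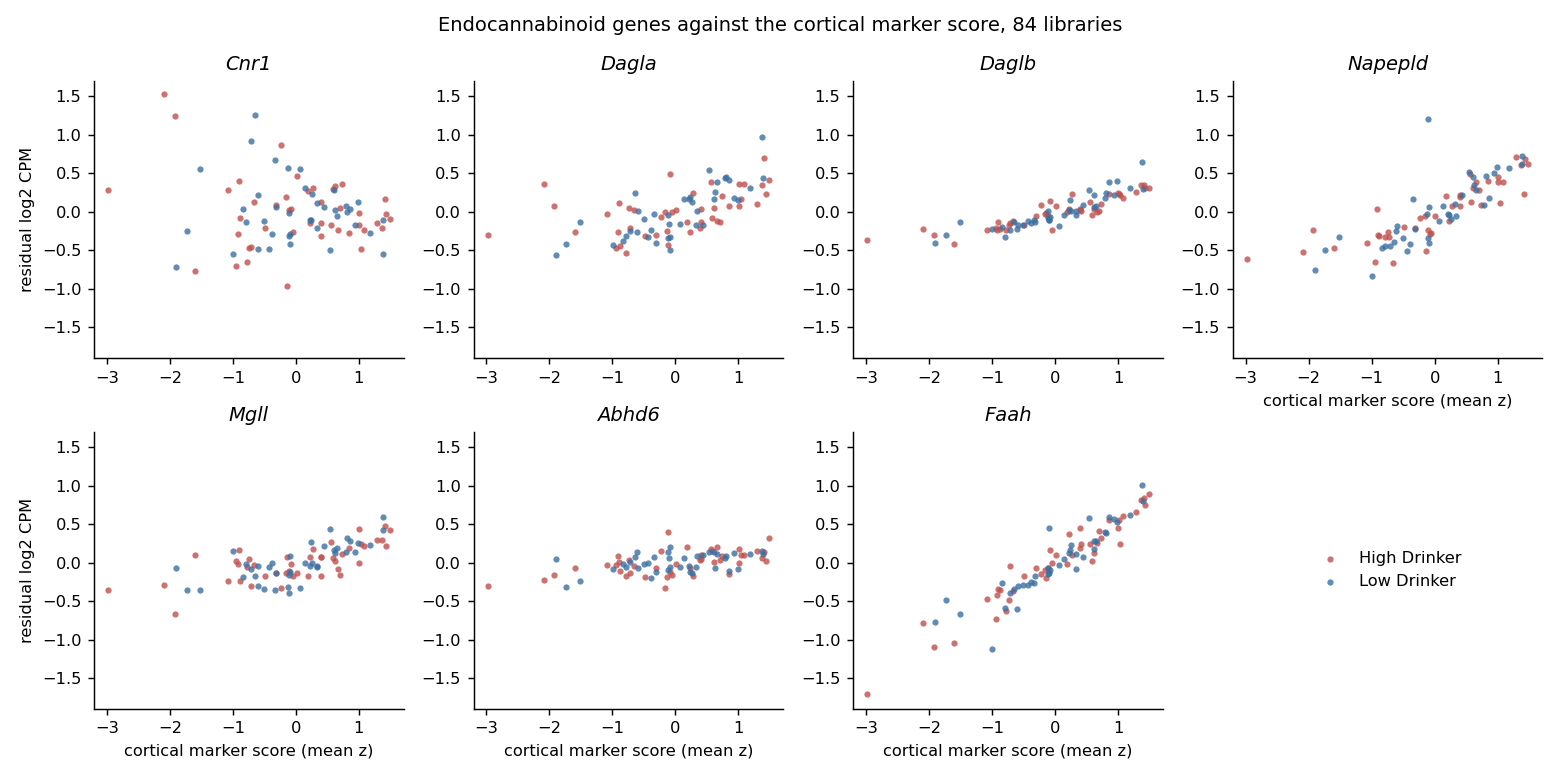
Residual log2 CPM of each gene (vertical axis, sheet set, sex and line removed) against the cortical marker score of the library (horizontal axis, mean z), 1 point per library, High Drinker in red and Low Drinker in blue. Faah rises along the axis with r = 0.944 and Daglb with 0.881, while Cnr1 (r = -0.172) fans out at the low end.

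The glial scores showed fewer relations. With the microglia score Cnr1 had r = 0.391 (permutation p = 0.00023, adjusted 0.000619; rho 0.299, p = 0.00583), 0.461 in set 1 and 0.266 in set 2, where it did not pass (adjusted p = 0.303). Faah had r = -0.483 with it (permutation p = 1e-05, adjusted 2.92e-05), and Mgll -0.371, Daglb -0.352 and Napepld -0.331 (adjusted p = 0.000984, 0.00183 and 0.00387 by permutation). In set 2 none of these passed by r, and Faah passed by rho (-0.492, adjusted p = 0.0182 by permutation). Dagla, which did not pass over the 84 libraries, was at r = -0.423 in set 2 (adjusted p = 0.0602) and passed by rho (-0.522, adjusted p = 0.0114, both by permutation). Daglb, best known from microglia, ran against the microglia score here. Abhd6 (r = 0.381, adjusted p = 0.00084) and Napepld (0.353, adjusted p = 0.00183, both by permutation) rose with the astrocyte score, at 0.442 and 0.457 in set 1 and at 0.245 and 0.142 in set 2, where neither passed, and no member passed with the oligodendrocyte score. In all, 20 of the 35 relations passed by r over the 84 libraries, where 43.4% of the relations of all tested genes with the 5 scores were past the same limit. In set 2 alone 10 passed, where 18.5% were.

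When both neuronal scores were removed from every gene, 12 of 21 pairs passed by r, 10 positive and 2 negative, and of these Dagla with Faah and Napepld with Mgll did not pass by rho. Of all pairs of tested genes, 17.6% were positive and 17.7% negative past the same limit. Dagla and Daglb kept r = 0.653 (rho 0.593, both permutation p = 1e-05, adjusted 0.00021). Daglb with Faah was at 0.239 (permutation p = 0.0283, adjusted 0.0496), Napepld with Faah at 0.209 (adjusted p = 0.0909) and Daglb with Napepld at 0.0446 (adjusted p = 0.757). Cnr1 with Mgll stayed at -0.374 (permutation p = 0.00041, adjusted 0.00329). Cnr1 with Dagla, receptor and ligand synthase, was at 0.380 (permutation p = 0.00047, adjusted 0.00329; rho 0.312, adjusted 0.0181), but at 0.237 without the 2 libraries farthest in Cnr1. Cnr1 with Napepld was at 0.322 (permutation p = 0.00325, adjusted 0.0136). Napepld and Mgll, at 0.499 before, turned negative, at -0.250 (permutation p = 0.021, adjusted 0.0422), but their rho of -0.120 did not pass (adjusted p = 0.374).

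Library composition also moved with some of these genes. For these relations the share of all tested genes past the same limit was not computed. A contrast of long against short transcripts had r = 0.345 with Dagla (permutation p = 0.00142, adjusted 0.0298 over 21 relations) and 0.292 with Napepld (p = 0.00701, adjusted 0.0368). Within set 1 these were 0.444 and 0.468, and within set 2 0.276 and 0.120. The length contrast itself had r = 0.369 with the cortical and -0.164 with the medium spiny neuron score, so these relations are not separate from those with the scores. A contrast of GC-rich against GC-poor genes had r = -0.296 with Cnr1 (permutation p = 0.00659, adjusted 0.0368), -0.190 in set 1 and -0.634 in set 2, and its rho of -0.267 did not pass (adjusted p = 0.0518). Total count had r = 0.305 with Abhd6 (permutation p = 0.00515, adjusted 0.0368), 0.328 in set 1 and 0.315 in set 2. With these contrasts removed beside the scores, an alternative chosen after seeing the data, 12 pairs passed by r, beside 24.4% of all pairs of tested genes past the same limit. Dagla with Daglb was then at 0.610, Cnr1 with Dagla at 0.545 and Cnr1 with Mgll at -0.308 (adjusted p = 0.0119 by permutation, but rho -0.201 with adjusted p = 0.117). Mgll with Faah, at 0.635 with only sheet set, sex and line removed, was then at -0.421 (adjusted p = 0.00042 by permutation). The pairs of Cnr1 with Napepld, Cnr1 with Faah and Napepld with Faah also passed by r and not by rho. The part of library composition in the line comparison was not tested.

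The design also names differential wiring, so each pairwise r was compared between lines. No pair of the 21 differed after adjustment (10000 permutations of line within sex and sheet set, lowest adjusted p = 0.589), and 1 had an unadjusted p under 0.05. That pair was Dagla with Faah, at r = 0.518 in High Drinkers and 0.798 in Low Drinkers (permutation p = 0.0456). Dagla with Daglb was at 0.655 in High Drinkers and 0.857 in Low Drinkers (permutation p = 0.0561). Daglb with Faah was at 0.895 in High Drinkers and 0.893 in Low Drinkers, and Cnr1 with Mgll at -0.414 in High Drinkers and -0.367 in Low Drinkers.

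The genes most like each member over the 84 libraries were found by Pearson r of the same residuals among genes of at least 1 CPM, as a description. Faah was nearest to Rtn4r, the Nogo receptor (0.967), Olfm1 (0.960) and Nrn1 (0.955), and Nrn1 is itself in the cortical list. Its most opposite gene was Inpp5f (-0.909). Daglb was nearest to Clstn1 (0.940), Sept8 (0.934) and Pip5k1c (0.932), and most opposite to Hmgn1 (-0.905). Dagla was nearest to Dab2ip (0.951), Nfic (0.933) and Sema7a (0.897), and most opposite to Arxes1 (-0.885). Napepld was nearest to Zmat4 (0.886), Rnd1 (0.885) and Mturn (0.882), and most opposite to Krt9 (-0.889). Mgll was nearest to Tmem132a (0.850), Dkk3 (0.835) and Sebox (0.834), and most opposite to Ece2 (-0.833). Abhd6 was nearest to Rps6kc1 (0.703), Glyr1 (0.662) and Zdhhc5 (0.660), and most opposite to E130307A14Rik (-0.705). Cnr1 was nearest to the malic enzyme gene Me2 (0.796), to Rgs4 (0.755), a GTPase-activating protein for Gi and Gq alpha subunits, and to Rgs7bp (0.752), and most opposite to Dhcr7 (-0.699), the last enzyme of cholesterol synthesis. With the neuronal scores removed, Me2 (0.827), Gpr155 (0.823) and Rgs4 (0.744) were nearest to Cnr1, so 2 of its 3 nearest genes were the same. Dagla likewise kept Dab2ip (0.925) and Nfic (0.899), and Napepld kept Zmat4 (0.640). Daglb, Mgll, Abhd6 and Faah kept none of theirs. All of these values share libraries, depth and makeup.

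Other genes of the endocannabinoid pathway were read from the same test of High against Low Drinker. They were listed by known function, with earlier results of these data known. Among 7 other cannabinoid-responsive receptors and CB1 partners, 2 had enough counts to be tested, and 1 was higher, beside 1.74% of all tested genes. The gene called higher was Sgip1 (chromosome 4, 102741297 to 102973628), an endocytic adaptor that binds CB1 and slows its internalization. It ran from 154 CPM (median 189) to 236 CPM in High Drinkers and from 101 CPM (median 171) to 215 CPM in Low Drinkers. The ranges overlapped, and 35 of 44 High Drinker libraries lay above the Low Drinker median. The log2 fold change was 0.16 (SE 0.0397, edgeR adjusted p = 0.0111), 0.18 in set 1 alone (adjusted p = 0.1196) and 0.10 in set 2 alone (adjusted p = 0.906), so it passed in neither set by itself, nor in males (0.19, adjusted p = 0.0961) or females (0.13, adjusted p = 0.589) alone. Of its exon bases 4.63% overlap Gm12709 on the other strand. Cnrip1, a CB1-interacting protein, averaged 66.8 ± 15.2 CPM in High Drinkers and 69.4 ± 14.5 CPM in Low Drinkers and did not pass. The 5 untested genes, Cnr2, Gpr55, Gpr18, Gpr119 and Trpv1, averaged from 0.00528 to 0.229 CPM, and the CB2 receptor gene Cnr2 was at 0.229 CPM.

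Among 8 other breakdown and carrier genes 7 were tested, and 1 was higher, beside 1.74% of all tested genes. Ptgs2, the cyclooxygenase that also oxidizes endocannabinoids (chromosome 1, 150100031 to 150108227), ran from 2.17 CPM (median 6.65) to 17.8 CPM in High Drinkers and from 1.84 CPM (median 3.91) to 16.5 CPM in Low Drinkers. Its ranges nearly coincided, with 36 of 44 High Drinker libraries above the Low Drinker median. The log2 fold change was 0.55 (SE 0.163, edgeR adjusted p = 0.0368). The call was lost without the sheet set term (0.41, adjusted p = 0.145), without the filter on low counts (adjusted p = 0.0533) and without set 3 (adjusted p = 0.0514), and in each set (0.78 in set 1, 0.27 in set 2) or sex (0.40 in males, 0.76 in females) alone. Fabp3, a fatty acid carrier, averaged 25.8 ± 4.40 CPM in High Drinkers and 29.9 ± 6.06 CPM in Low Drinkers and just missed the threshold (log2 fold change -0.18, edgeR adjusted p = 0.0535). Fabp5, a carrier of the same family, averaged 49.9 ± 9.52 CPM in High Drinkers and 45.9 ± 8.92 CPM in Low Drinkers and did not pass. Abhd12, a further lipase for 2-arachidonoylglycerol, averaged 296 ± 23.2 CPM in High Drinkers and 296 ± 27.9 CPM in Low Drinkers.

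Among 10 other synthesis genes 9 were tested and 0 passed, beside 3.94% of all tested genes. Gde1 was the most abundant of these, at 248 ± 28.6 CPM in High Drinkers and 259 ± 36.8 CPM in Low Drinkers. Abhd4, a lipase of the N-acylethanolamine route, averaged 61.4 ± 6.66 CPM in High Drinkers and 58.7 ± 6.21 CPM in Low Drinkers, and Gdpd1, a lysophospholipase D, 47.5 ± 2.91 CPM in High Drinkers and 47.4 ± 3.09 CPM in Low Drinkers. All 15 genes of receptor-driven 2-arachidonoylglycerol release and CB1 signalling were tested and 0 passed, beside the same 3.94%. Camk2a, Gnao1 and Gnb1 were the most abundant of the 15. Gnao1, the main G alpha partner of CB1 in brain, averaged 798 ± 55.5 CPM in High Drinkers and 767 ± 52.8 CPM in Low Drinkers (log2 fold change 0.06, edgeR adjusted p = 0.173). The median log2 fold changes of the 4 lists were 0.08 for receptors and partners, 0.02 for synthesis, 0.08 for breakdown and carriers and 0.03 for signalling, against -0.0016 for all tested genes.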

How the data were processed

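The values are whole-number read counts of genes that the authors deposited as a single featureCounts table, of which all 84 animal columns were used (0 left out). The submitters' processing notes name mm10 as the build, STAR as a tool beside FastQC, Subread's featureCounts and edgeR. Tool versions, strand setting and handling of multi-mapped reads were not given in the sources used here. Per the labels' protocols, Trizol RNA was turned into amplified cDNA (Ovation kit) and sequenced as single-end reads, so counts include amplification duplicates. No entry lacks a gene (0).

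The genes and lists were chosen with earlier results of these data known. Symbols came from GENCODE for 42462 identifiers. Line, sex and their interaction were tested with edgeR 4.0.16 in R 4.3.3 (quasi-likelihood, TMM, filterByExpr by line, terms for sheet set, sex and line) over 16537 genes, with Benjamini-Hochberg adjustment at 0.05. CPM is scaled by TMM library sizes, and RPKM divides it by the deposited gene length. Spread used limma 3.58.1 on log2 CPM (prior count 2), and alternatives used DESeq2 1.42.0, limma-voom and sva 3.50.0. The contrasts are the median residual log2 CPM of the top less that of the bottom 10% of genes by length or GC. The shares of all genes or pairs past a limit of r use the r whose p, by the t distribution, equals the p limit of the members' adjustment. Correlations used numpy 2.4.6, scipy 1.17.1 and Python 3.11.15, and their permutation p are two-sided. The tests of line, sex, interaction and spread were first tested on simulated data. The search for nearest genes was checked on planted values. All 7 members are named, with, from each other list, genes past the line threshold and the 3 most abundant, and for each member the 3 nearest genes and the most opposite one. The other untested receptors (Gpr18, Gpr119, Trpv1) were named after their values were seen. Of 3486 library pairs, 0 were identical. Counting error was not estimated. The lowest count of any of the 7 genes in a library was 159, while the highest count of Gpr18 was 1. Protein sequences were not used here.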

Additional observations from a re-analysis of the deposited data

How the results depend on the processing

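No member was called for line, sex, interaction or spread under any alternative, and no pair differed in r between lines. No paired analysis was possible because replicate numbers follow accession order and pair no animals. Over all genes, the 651 line calls became 404 without the 5 libraries, 77 in sheet set 1 alone, 74 in set 2 alone, 35 in females, 107 in males and 2451 with 5 surrogate variables, and the cause was not tested beyond the fewer animals in the subsets. Sex calls became 34 without the filter (15 with it), and spread calls became 5 with a prior count of 0.5, and 0 with a prior count of 5 or without the 5 libraries (2 otherwise). In set 2 alone, 10 pairs and 10 score relations passed. Without the 5 libraries, 14 positive pairs and 1 negative passed by r.

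Some values turned sign, and of these Napepld with Mgll (r = 0.499) and Mgll with Faah (0.635) passed by r with either sign. For Napepld with Mgll the negative value passed with the scores removed (-0.250, adjusted p = 0.0422 by permutation), but not by rho (adjusted p = 0.374). With the contrasts also removed it did not pass (-0.203, adjusted p = 0.104 by permutation). The line difference (log2) of Cnr1 was -0.012 with the neuronal scores in the model, -0.080 in set 1, -0.18 in males and -0.0095 with surrogate variables. That of Dagla was -0.033 without the set term, -0.059 in set 1, -0.030 without set 3 and -0.13 in males. In females Daglb was at 0.064, Mgll at 0.051 and Faah at 0.036, and with surrogate variables Mgll was at 0.0018. The sex difference of Daglb was 0.00056 without the filter, that of Cnr1 0.00092 without the 5 libraries and 0.015 with the scores, and that of Faah -0.091 and -0.050 in these. The interaction of Napepld was 0.046 without the 5 libraries and 0.19 with the scores, where Abhd6 was at 0.029 and Faah at 0.021. With the scores removed, the spread difference was 0.048 for Dagla, 0.0011 for Daglb, 0.0042 for Mgll and 0.016 for Faah.

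The r of Cnr1 with Daglb was 0.250 with the scores removed, 0.149 in set 2 and 0.406 with the contrasts also removed; with Napepld 0.322, 0.205 and 0.287, and with Faah 0.177, 0.0099 and 0.384 in these. With the scores removed, r was -0.0761 for Dagla with Abhd6, -0.194 for Daglb with Abhd6, -0.250 for Napepld with Mgll, -0.158 for Mgll with Faah and -0.103 for Abhd6 with Faah; with the contrasts also removed, the last 4 were -0.145, -0.203, -0.421 and -0.0337. Oligodendrocyte relations without the 5 libraries were 0.0890 for Daglb, 0.0517 for Mgll and 0.0478 for Faah, and in set 2 0.0175, 0.124 and 0.0566, with Cnr1 at -0.0205 and Abhd6 at 0.186, while Napepld was at -0.166 in set 1. Astrocyte relations were -0.0444 for Cnr1 in set 1 and, in set 2, -0.0444 for Daglb, -0.0942 for Mgll and -0.103 for Faah. Abhd6 with microglia was -0.0065 without the 5 libraries and -0.0892 in set 1. In set 2 Cnr1 was at -0.0733 with the medium spiny neuron and 0.105 with the cortical score.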
